A study of Bos taurus with 8 samples.

Results

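The genes described here are the ER chaperones and the regulators of the unfolded protein response in bovine granulosa cells, the somatic cells around the oocyte in the ovarian follicle, which respond to follicle-stimulating hormone (FSH). They are a list of 34 genes, chosen by name for their place in this pathway and found on the array by symbol, older names included. Earlier results of these data were known when the list was made, which limits its comparison with all genes. Of these, 33 had a probe (49 probes, of which 47 were tested), against 13589 named genes with a tested probe in all. ATF6 was not analysed here. SELENOS was listed on the array as SELS, HYOU1 as ORP150, ERO1A as ERO1L and XBP1 as XBPP1, which RefSeq gives as synonyms.

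The treated cells received FSH at 1 ng/ml for the last 4 h of a 48 h culture, and the control cells were cultured for the same 48 h without FSH. All cells came from slaughterhouse follicles of 2 to 6 mm, 4 follicles for a biological replicate, and no other agent or allele is named in the labels. Each of 8 two-colour arrays carried amplified RNA of 1 treated and 1 control culture. Same-numbered arrays with opposite dyes make up replicates 1 to 4, and all ratios below are log2 of FSH over control averaged over both arrays of a pair. The labels do not say that same-numbered arrays carry the same RNA, and the protocol speaks of 8 biological replicates. They were taken as dye swaps of the same RNA, since they deviated together (r = 0.782 to 0.913), and n = 4 and each SE rest on that. Whether the treated and control cultures of a number shared their ovaries is not stated, and p-values measure only the spread between these samples.

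Proteins that enter the secretory pathway fold in the endoplasmic reticulum (ER) with the help of chaperones, lectins and disulfide isomerases. When unfolded proteins build up there, membrane sensors respond. IRE1 (gene ERN1) splices the mRNA of XBP1, ATF6 is cut to free a transcription factor, and PERK (gene EIF2AK3) phosphorylates eIF2alpha, which lowers translation and favours that of ATF4. XBP1 and ATF6 raise chaperones and the machinery of ER-associated degradation (ERAD), and ATF4 raises genes of amino acid supply and the stress factor DDIT3. Granulosa cells secrete inhibins, activins and matrix proteins through this pathway.

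Per channel of an array, 71.4% to 84.2% of probes for genes gave more signal than the negative controls, and no member spot was saturated. Of the granulosa markers, INHA, INHBA, FSHR, CYP19A1, AMH, NR5A1, CYP11A1, HSD17B1 and GATM exceeded the negative controls in both channels of all 8 arrays, and FOXL2 did so on 5 FSH and 7 control arrays. Replicate 3 stood apart. NR4A1, an immediate-early gene that FSH signalling induces, had a log2 ratio of 3.22, 4.37, 0.13 and 4.10 in replicates 1 to 4. Its log2 level was 14.47 to 15.26 with FSH, against 14.89 in the control of replicate 3 and 10.89 to 11.25 in the other controls. Members are therefore given by replicate.

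Across the members, small positive differences were common but none passed the test. By the brightest probe of each gene, 24 of 33 (72.7%) had a mean ratio above 0, against 48.1% of all genes. The median ratio was 0.10 for the members and -0.00471 for all genes. Over the 4 replicate means, 0 members reached an adjusted p under 0.05 with limma, as did 0% of all tested probes. At an unadjusted p under 0.05, 7 members (21.2%) were higher with FSH, against 7.9% of all genes. In the same test 1 member (3.03%) was lower, against 8.07% of all genes.

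The fit that keeps all 8 arrays, with the replicate as a random block and a term for the dye, gave 2 calls. In it MANF and SYVN1 rose with FSH, which is 6.06% of the members, against 2.66% of all genes called higher. It called 0 members lower, against 2.41% of all genes. Over all tested member probes the count was 3 of 47 (6.38%), against 3.41% of all tested probes. These sets are unlike, since every member probe has a gene symbol, but only 18810 of the 36531 tested probes do. Counted in either direction, the 6.06% of members called lay near the 5.06% of all genes. The share called higher rests on 2 members. This fit counts both arrays of a replicate number and uses 1 correlation (0.72) for every probe, so its errors can come out too small. It called 0 of all tested probes when replicate 1, 2 or 4 was left out, MANF and SYVN1 included.

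**Figure D1:**
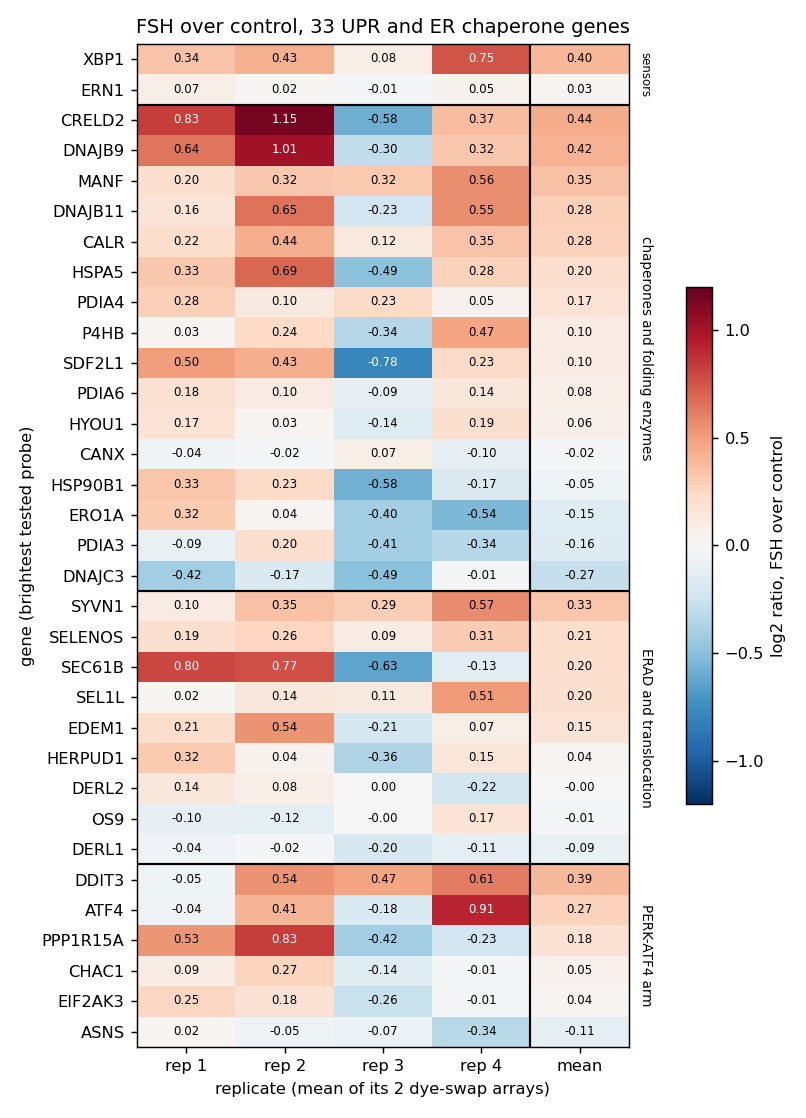
Log2 ratio of FSH over control for the 33 measured members (rows, brightest tested probe), in replicates 1 to 4 and as their mean (columns), grouped by role. Red is higher with FSH. XBP1, MANF, CALR, SYVN1, SELENOS, SEL1L and PDIA4 were above 0 in every replicate, and CRELD2, DNAJB9 and HSPA5 were above 0 in replicates 1, 2 and 4 and below 0 in replicate 3.

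Of the sensors and their direct product, XBP1 differed the most. XBP1, the transcription factor made from the mRNA that IRE1 splices, had log2 levels of 15.10, 15.11, 15.08 and 15.23 with FSH in replicates 1 to 4, against 14.76, 14.68, 15.01 and 14.48 in the controls. Every FSH level lay above every control level, with the smallest gap in replicate 3. The mean ratio was 0.40 ± 0.12 (SE, n = 4 replicates), which is 1.32-fold (adjusted p = 0.321 by limma, and 0.0568 in the blocked fit). The array does not separate spliced from unspliced XBP1 mRNA, and the probe is known only by the older symbol.

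ERN1, which encodes IRE1 itself, lay close to background, above the negative controls on all 8 FSH arrays and on 6 of 8 control arrays. Its ratio was 0.07, 0.02, -0.01 and 0.05 in replicates 1 to 4, with a mean of 0.03 ± 0.04. A difference in ERN1 was not detectable at this signal. EIF2AK3, which encodes PERK, had levels of 8.24, 8.53, 8.05 and 8.08 with FSH, against 7.99, 8.35, 8.31 and 8.09 in the controls. These groups overlapped, with a mean ratio of 0.04 ± 0.10 (adjusted p = 0.927).

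Among the 16 chaperones and folding enzymes, MANF was the member with the lowest p. MANF, a secreted neurotrophic factor that binds the chaperone BiP in the ER, had levels of 13.36, 13.73, 13.57 and 13.49 with FSH, against 13.16, 13.40, 13.25 and 12.92 in the controls. Within each replicate the FSH level was the higher, although the lowest FSH level lay below the highest control level. The mean ratio was 0.35 ± 0.07, or 1.28-fold (adjusted p = 0.253 by limma). In the blocked fit MANF rose by 0.35 ± 0.07 (adjusted p = 0.0295), and it was above 0 on 8 of 8 arrays. Its ratio was 0.35 on the 4 arrays with FSH in Cy5 and 0.35 on the 4 with FSH in Cy3.

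CALR, a lectin chaperone that holds glycoproteins until they are folded, had levels of 12.24, 12.48, 12.54 and 12.36 with FSH, against 12.02, 12.04, 12.42 and 12.02 in the controls. Only the control of replicate 3 reached the range of the FSH levels. The ratio was 0.22, 0.44, 0.12 and 0.35, with a mean of 0.28 ± 0.07 (adjusted p = 0.288). It depended on the dye orientation, at 0.04 with FSH in Cy5 and 0.52 with FSH in Cy3. As each orientation was hybridised on a slide of its own, dye and slide cannot be told apart.

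PDIA4, a protein disulfide isomerase, had levels of 7.46, 7.47, 7.80 and 7.74 with FSH, against 7.18, 7.36, 7.57 and 7.69 in the controls. The groups overlapped, but the FSH level was the higher in each replicate, with a mean ratio of 0.17 ± 0.06 (adjusted p = 0.368). The PDIA4 ratio also depended on the dye orientation, at 0.29 with FSH in Cy5 and 0.04 with FSH in Cy3. DNAJC3, which encodes the co-chaperone and PERK inhibitor P58IPK, lay on the other side, with levels of 9.33, 9.14, 9.42 and 9.08 with FSH, against 9.75, 9.31, 9.91 and 9.09 in the controls. Its ratio was below 0 in all 4 replicates and averaged -0.27 ± 0.09 (adjusted p = 0.375). By single arrays it was above 0 on 2 of 8. It was at -0.08 with FSH in Cy5 and -0.47 with FSH in Cy3.

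HSPA5 encodes BiP (GRP78), the main HSP70 chaperone of the ER and the usual marker of this response. Its levels were 13.72, 14.08, 13.30 and 13.48 with FSH, against 13.40, 13.39, 13.79 and 13.20 in the controls. In replicates 1, 2 and 4 the FSH level was the higher, by 0.33, 0.69 and 0.28, and in replicate 3 it was the lower, by -0.49. The control of replicate 3 was the highest of the controls and the FSH sample of replicate 3 the lowest of the FSH samples. The mean ratio was 0.20 ± 0.20 (adjusted p = 0.76).

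Several other genes of the ER shared the signs of HSPA5, above 0 in replicates 1, 2 and 4 and below 0 in replicate 3. CRELD2, an ER-resident protein of the stress response, had ratios of 0.83, 1.15, -0.58 and 0.37 (mean 0.44 ± 0.30). DNAJB9, the J-domain protein ERdj4, which represses IRE1 and helps ERAD, had 0.64, 1.01, -0.30 and 0.32 (mean 0.42 ± 0.22). The BiP co-chaperone DNAJB11 had 0.16, 0.65, -0.23 and 0.55 (mean 0.28 ± 0.16). SDF2L1, which works with DNAJB11, had 0.50, 0.43, -0.78 and 0.23 (mean 0.10 ± 0.24). The replicate ratios of each of these genes spanned more than its mean ratio. Their adjusted p by limma lay between 0.536 for DNAJB9 and 0.921 for SDF2L1.

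**Figure D2:**
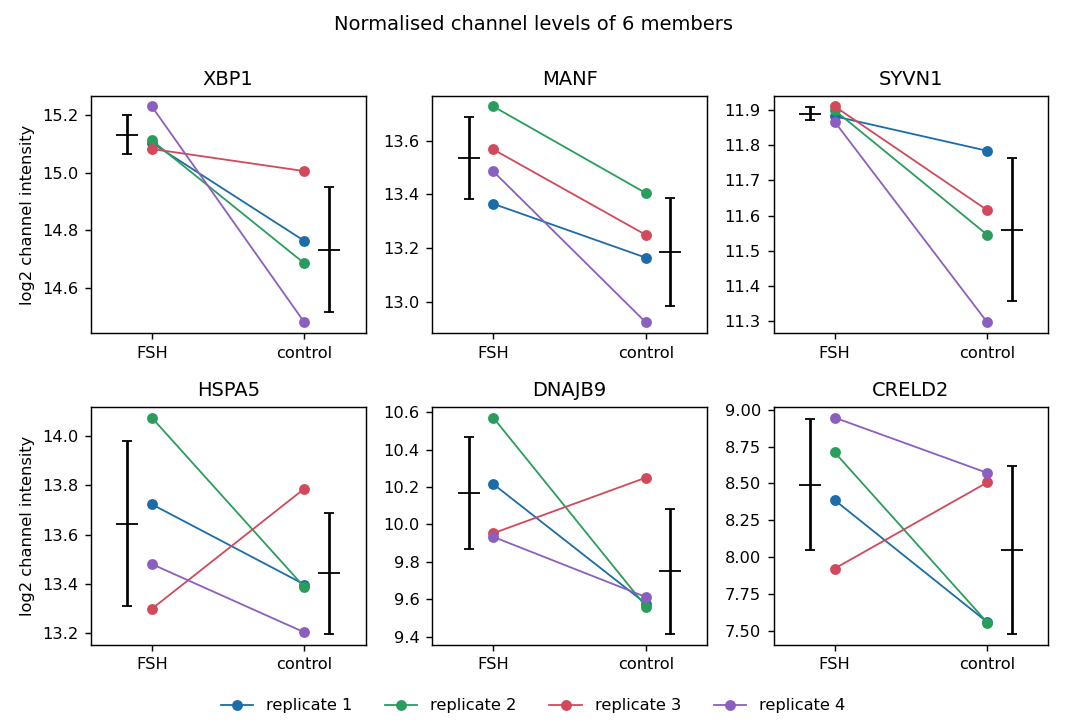
Normalised log2 channel intensity of 6 members with FSH (left) and in the control (right). Points are replicates 1 to 4, lines join both channels of a replicate, and bars give the mean and SD of 4 replicates. XBP1, MANF and SYVN1 are lower in the control in every replicate, whereas replicate 3 runs the other way for HSPA5, DNAJB9 and CRELD2.

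The other folding enzymes differed little or unevenly. PDIA6, a disulfide isomerase, was at 0.08 ± 0.06 and P4HB, the isomerase that is also a subunit of prolyl hydroxylase, at 0.10 ± 0.14. HYOU1 (GRP170), a nucleotide exchange factor of BiP, was at 0.06 ± 0.07 by a dim probe (mean log2 intensity 7.22). CANX, the membrane-bound partner of CALR, was at -0.02 ± 0.05 and HSP90B1 (GRP94), the HSP90 of the ER, at -0.05 ± 0.17. ERO1A, the oxidase that recharges the disulfide isomerases, was at -0.15 ± 0.16, and PDIA3, the isomerase that works with CALR and CANX, at -0.16 ± 0.12. The FSH and control levels of each of these genes overlapped.

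Of the 9 genes of ERAD and translocation, SYVN1 had the highest mean ratio. SYVN1 (HRD1), the ligase that marks misfolded ER proteins, had levels of 11.88, 11.90, 11.91 and 11.87 with FSH, against 11.78, 11.55, 11.62 and 11.30 in the controls. Every FSH level lay above every control level. The SD was 0.02 over the FSH samples and 0.20 over the controls, so the ratio of a replicate varied with its control. The mean ratio was 0.33 ± 0.09, or 1.26-fold (adjusted p = 0.3 by limma), and SYVN1 rose in the blocked fit (adjusted p = 0.0445), with 8 of 8 arrays above 0.

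SELENOS, a selenoprotein that anchors the p97 ATPase at the ER membrane, had levels of 13.48, 13.54, 13.21 and 13.16 with FSH, against 13.29, 13.28, 13.12 and 12.85 in the controls. The groups overlapped, but the FSH level was the higher on all 8 arrays, with a mean ratio of 0.21 ± 0.05 (adjusted p = 0.29). SEL1L, the adaptor of SYVN1, had ratios of 0.02, 0.14, 0.11 and 0.51 (mean 0.20 ± 0.09, adjusted p = 0.495).

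Of the other members of the degradation and import machinery, none was above 0 in all 4 replicates. EDEM1, a mannosidase-like protein that directs glycoproteins to ERAD, was at 0.15 ± 0.13 and HERPUD1, which recruits substrates to the ligase, at 0.04 ± 0.12. The channel-forming derlins DERL1 and DERL2 were at -0.09 ± 0.05 and -0.0021 ± 0.07, with DERL1 below 0 on all 8 arrays. The lectin OS9 was at -0.01 ± 0.06, also by a dim probe (mean log2 intensity 7.21). SEC61B, a subunit of the translocon, had ratios of 0.80, 0.77, -0.63 and -0.13 (mean 0.20 ± 0.28), which is the widest spread between replicates in this group.

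The PERK-ATF4 arm showed no common course. ATF4, the transcription factor of this arm, had levels of 9.94, 10.50, 10.03 and 10.63 with FSH, against 9.98, 10.10, 10.21 and 9.72 in the controls. Its ratio was 0.41 in replicate 2 and 0.91 in replicate 4 and lay below 0 in replicates 1 and 3, with a mean of 0.27 ± 0.20 (adjusted p = 0.658). ATF4 is controlled largely by translation, which an array does not measure.

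DDIT3 (CHOP), the stress factor downstream of ATF4, had levels of 7.25, 7.70, 7.92 and 7.61 with FSH, against 7.30, 7.16, 7.45 and 7.0 in the controls. It was higher in replicates 2, 3 and 4 and lower by -0.05 in replicate 1. The mean ratio was 0.39 ± 0.12 (adjusted p = 0.344 by limma, and 0.0778 in the blocked fit). The other DDIT3 probes, which were slightly dimmer, were at 0.19 ± 0.05 and 0.10 ± 0.06. The first of these was above 0 in all 4 replicates, with all FSH levels above all controls. It passed in neither fit (adjusted p = 0.301 by limma, and 0.245 in the blocked fit). The second was below 0 in replicate 1.

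ASNS (asparagine synthetase), a standard target of ATF4, had levels of 12.70, 12.35, 12.59 and 12.55 with FSH, against 12.68, 12.40, 12.65 and 12.89 in the controls. The groups overlapped, with a mean ratio of -0.11 ± 0.07 (adjusted p = 0.633). The ASNS ratio depended on the dye orientation. In replicates 1 to 4 it was -0.22, -0.38, -0.28 and -0.63 with FSH in Cy5. With FSH in Cy3 it was 0.27, 0.29, 0.15 and -0.04. PPP1R15A (GADD34), the inducible subunit of the phosphatase that reverses PERK signalling, had ratios of 0.53, 0.83, -0.42 and -0.23 (mean 0.18 ± 0.24). CHAC1, a glutathione-degrading enzyme under ATF4 and DDIT3, averaged 0.05 ± 0.08, but its sign followed the dye. With FSH in Cy5 its ratio was -0.69 (adjusted p = 0.0208 by limma over those 4 arrays), and with FSH in Cy3 it was 0.79 (adjusted p = 0.0593).

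Set side by side, the chaperone, ERAD and PERK-ATF4 lists had similar medians. The median ratio was 0.10 for the chaperones and folding enzymes (11 of 16 above 0), 0.15 for ERAD and translocation (6 of 9) and 0.11 for the PERK-ATF4 arm (5 of 6). In replicates 1 to 4 the chaperone median was 0.21, 0.23, -0.32 and 0.21, the ERAD median 0.14, 0.14, -0.00339 and 0.15, and the PERK-ATF4 median 0.05, 0.34, -0.16 and -0.01. The sensor list had a median of 0.22, or 0.21, 0.22, 0.03 and 0.40 in replicates 1 to 4, but held only ERN1 and XBP1. The medians over all genes stayed between -0.02 and 0.01 in the 4 replicates. Without replicate 1 the ERAD median was 0.02, and without replicate 2 the PERK-ATF4 median was -0.02. No test was made between arms, whose genes are not replicates of a condition.

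**Figure D3:**
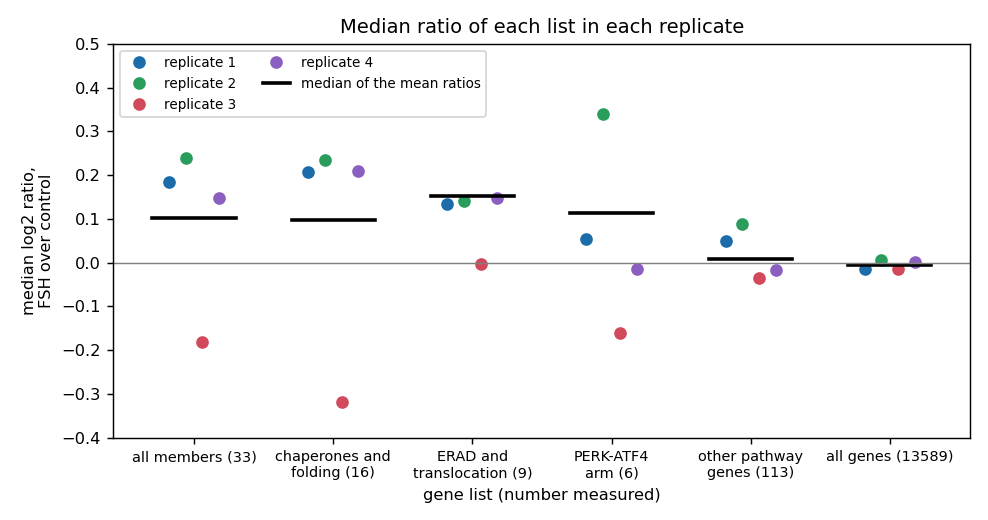
Median log2 ratio of FSH over control (y axis) of each gene list (x axis, number of measured genes in brackets). Coloured points are the medians in replicates 1 to 4 and the black line is the median of the mean ratios. In replicate 3 the chaperone median is -0.32, and the median of all genes stays near 0 in every replicate.

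Replicate 3 differed in sign from the other replicates for many members, most often among the chaperones. In replicate 3, 10 of 33 members were above 0, against 26, 28 and 21 in replicates 1, 2 and 4. Among all genes 46.3% were above 0 in replicate 3. The following sign patterns were looked up after the values were seen and carry no test. In 11 members (33.3%), HSPA5, PDIA6, P4HB, DNAJB9, DNAJB11, SDF2L1, CRELD2, HYOU1, HERPUD1, EDEM1 and ERN1, the ratio was above 0 in replicates 1, 2 and 4 and below 0 in replicate 3. That pattern held for 8.87% of all genes. In 7 members (21.2%), CALR, PDIA4, MANF, SELENOS, SYVN1, SEL1L and XBP1, the ratio was above 0 in all 4 replicates, against 10.7% of all genes. DNAJC3 and DERL1 were below 0 in all 4 (6.06%), against 11.6% of all genes.

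The control of replicate 3 was the highest of the 4 controls for 18 members (54.5%), 10 of the 16 chaperones and folding enzymes among them. Among all genes this was so for 30.0%. NR4A1 was also highest in that control. For the other members the highest control was that of replicate 1 (3 members), 2 (8 members) or 4 (4 members). What sets the control of replicate 3 apart was not tested. By levels, all FSH samples lay above all controls for XBP1 and SYVN1, 2 of 33 (6.06%), against 1.6% of all genes. For 0 members did all FSH samples lie below all controls, against 1.66% of all genes.

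Without replicate 3 the blocked fit called 7 members (21.2%), against 10.8% of all genes called in either direction. All 7 were higher with FSH, whereas among all tested probes this fit called 1390 higher and 1220 lower. These were CRELD2 (0.78 ± 0.13, adjusted p = 0.0162 by limma), XBP1 (0.51 ± 0.09, adjusted p = 0.0203), DNAJB9 (0.66 ± 0.12, adjusted p = 0.023), HSPA5 (0.43 ± 0.09, adjusted p = 0.034), SDF2L1 (0.39 ± 0.08, adjusted p = 0.0363), MANF (0.36 ± 0.08, adjusted p = 0.0396) and DNAJB11 (0.45 ± 0.10, adjusted p = 0.044). SYVN1 was no longer among the calls (0.34 ± 0.09, adjusted p = 0.0757). Replicate 3 stood out by the FSH response itself, so these smaller errors depend on the outcome and are no independent test. Tested over the 3 remaining replicate means, 0 members passed with limma, while 10 higher members (30.3%) and 0 lower members had an unadjusted p under 0.05. Among all genes, 10% were higher and 11.2% lower by that measure.

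Of the 9 genes with more than 1 tested probe, 5 had all probes on the same side of 0 (DDIT3, DERL1, DERL2, EDEM1 and PDIA6) and 4 did not (CANX, HSP90B1, HYOU1 and SEL1L). The EDEM1 probes were at 0.15, 0.10 and 0.10, the DERL1 probes at -0.09 and -0.01, and the HYOU1 probes at 0.06 and -0.03. The brightest CANX probe was at -0.02, while the others were at -0.19 ± 0.09 and 0.23 ± 0.04, and the last of these was above 0 in all 4 replicates and passed in the blocked fit (adjusted p = 0.0455 by limma). HSP90B1 was at -0.05 by its brightest probe and at 0.37 ± 0.23 by a dimmer one. The PDIA6 probes were at 0.08, 0.21 and 0.42, in the order of falling brightness, and each was below 0 in replicate 3. SEL1L was at 0.20, 0.31 and -0.04, the last by a probe of mean log2 intensity 6.76 that exceeded the negative controls on 3 FSH and 2 control arrays of 8. With the probes of each gene averaged, the member median was 0.15.

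**Figure D4:**
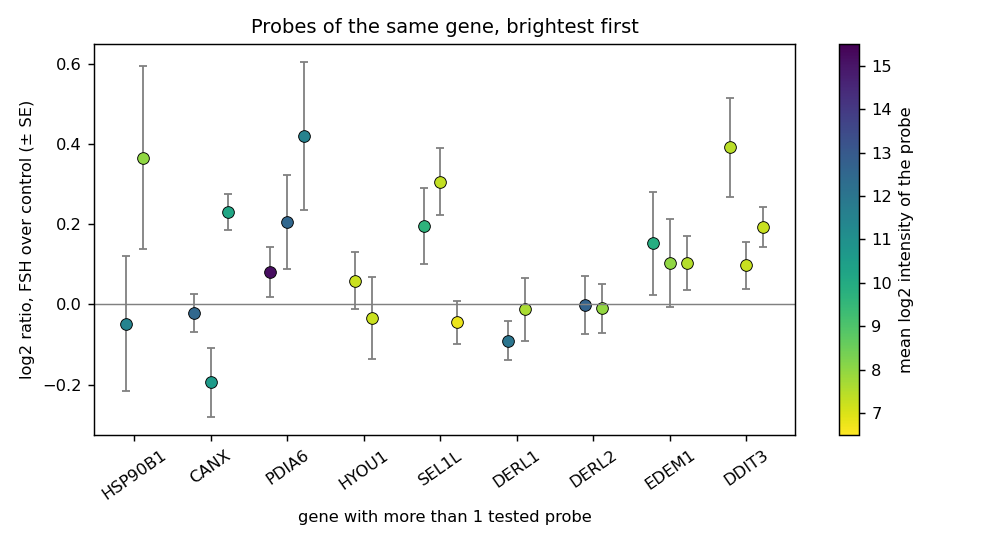
Mean log2 ratio of FSH over control with its SE (y axis, n = 4 replicates) for each tested probe of the 9 members with more than 1 (x axis), brightest probe on the left. Colour gives the mean log2 intensity of the probe. The CANX probes lie on both sides of 0, and the PDIA6 probes range from 0.08 to 0.42.

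A wider set of ER genes was examined, of which 113 of 123 were measured, in 5 lists of folding and redox enzymes, ERAD, translocation and retrieval, sensors, and ATF4 targets with the control of eIF2alpha. Their median ratio was 0.00777, with 60 of 113 above 0. Over the replicate means 0 passed with limma, while 13 higher (11.5%) and 12 lower genes (10.6%) had an unadjusted p under 0.05, against 7.9% and 8.07% of all genes. The blocked fit called 6 that rose (5.31%) and 4 that fell (3.54%), against 2.66% and 2.41% of all genes.

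In the import of proteins into the ER, 3 genes rose in the blocked fit. With the SE of that fit, SPCS3, a subunit of signal peptidase, was at 0.38 ± 0.06 (adjusted p = 0.0163 by limma). SSR1, a translocon-associated protein, was at 0.32 ± 0.06 (adjusted p = 0.0329). SRPRA, the receptor of the signal recognition particle, was at 0.35 ± 0.08 (adjusted p = 0.0451). SPCS3 had levels of 11.73, 12.15, 12.10 and 12.13 with FSH, against 11.33, 11.68, 11.79 and 11.78 in the controls, with differences between 0.31 and 0.47 in every replicate. The list of import and retrieval genes had a median of 0.11 over 27 genes.

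CREB3L2, an ER membrane transcription factor of the ATF6 type, also rose in that fit, at 0.68 ± 0.12 over the replicate means (blocked adjusted p = 0.0166 by limma). Its ratio was 0.44, 0.72, 0.47 and 1.08 in replicates 1 to 4, and its control level ranged from 10.02 to 11.59. ATF6B, the paralogue of ATF6, was at -0.14 ± 0.06 and lay near background, at a mean log2 intensity of 6.99.

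In ERAD, SELENOK, a selenoprotein partner of SELENOS, rose in the blocked fit, and NGLY1, which strips glycans from degraded proteins, and UBXN4, a p97 adaptor, fell. With the SE of that fit, SELENOK was at 0.65 ± 0.13 (adjusted p = 0.0336 by limma). NGLY1 was at -0.52 ± 0.09 (adjusted p = 0.0216) and UBXN4 at -0.41 ± 0.09 (adjusted p = 0.0438). The SELENOK ratio was 0.57, 0.91, 0.10 and 1.03, with a control level of 13.88 in replicate 3 and 12.95 to 13.29 in the other controls. No list member among the other folding and redox enzymes passed, where the lowest p belonged to SDF2 (0.20 ± 0.05), PDIA5 (-0.21 ± 0.07) and TXNDC5 (0.17 ± 0.05).

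In the control of eIF2alpha, PPP1R15B (CReP), the constitutive counterpart of PPP1R15A that binds the same phosphatase catalytic subunit in its place, had the highest ratio among the ER genes called in the blocked fit. Its levels were 13.89, 14.39, 13.73 and 13.90 with FSH, against 12.74, 12.42, 13.61 and 12.47 in the controls. All FSH levels lay above all controls, and the control of replicate 3 stood apart from the others as it did for NR4A1. The mean ratio was 1.17 ± 0.31, or 0.12 in replicate 3 and 1.15 to 1.97 in the others, and it rose in the blocked fit (adjusted p = 0.0309 by limma). EIF2AK4 (GCN2), the eIF2alpha kinase of amino acid shortage, fell in that fit, at -0.39 ± 0.08 (adjusted p = 0.0387). VLDLR, a lipoprotein receptor raised by ATF4, fell in the blocked fit as well, at -0.68 ± 0.11 (adjusted p = 0.0163). ATF3, a stress-induced transcription factor named here after its values were seen, had a higher mean ratio but a wider spread, with 0.83, 2.99, -0.04 and 1.49 (mean 1.32 ± 0.51, adjusted p = 0.412 by limma). Of the 32 measured genes in this list, 14 were above 0, with a median of -0.04.

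**Figure D5:**
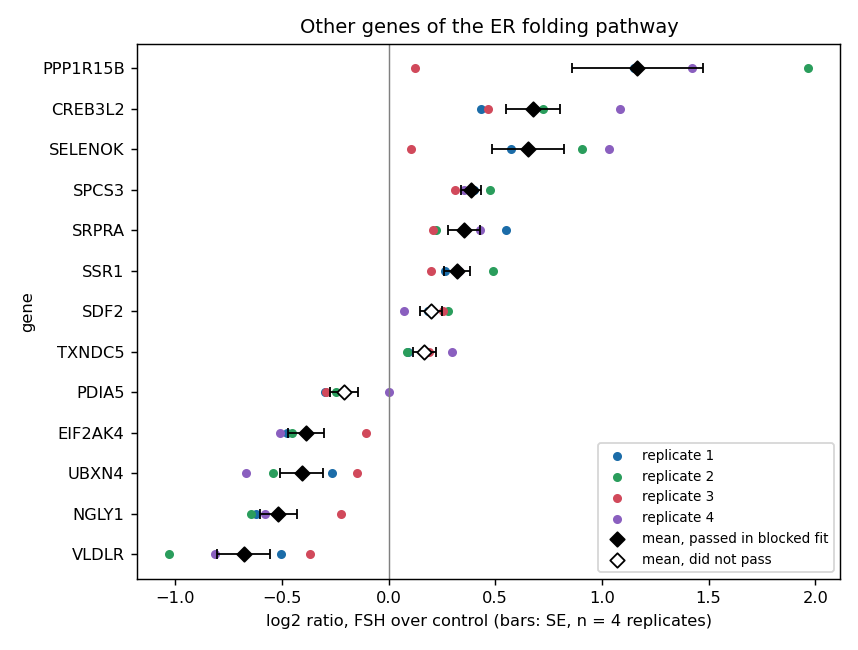
Log2 ratio of FSH over control (x axis) of 13 other genes of the ER folding pathway (y axis). Diamonds and bars give the mean and SE of 4 replicates, filled where the gene passed in the blocked fit, and coloured points are the replicates. PPP1R15B is highest at 1.17 and VLDLR lowest at -0.68.

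Markers of granulosa and other ovarian cells were set beside these values. The 5 fibroblast and stroma markers had a median ratio of 0.24, with 5 of 5 above 0. Of these, COL3A1 (0.00168 ± 0.22) and PDGFRA (0.03 ± 0.11) lay at 0 within their SE. In replicates 1 to 4 the median of the 5 was 0.49, 0.25, -0.11 and 0.24, with 4, 5, 2 and 3 markers above 0. The summed linear intensity of the 5 ranged from 17396 to 43115 with FSH and from 9821 to 31559 in the controls. LUM, the brightest of them (mean log2 intensity 13.78), weighed most in that sum. The sum of the 10 granulosa markers ranged from 82105 to 87822 with FSH and from 71119 to 82126 in the controls. INHA and INHBA (mean log2 intensity 15.11 and 15.14) weighed most in it. INHBA was itself at 0.24 ± 0.08, and INHA at 0.06 ± 0.07. The part of these cell types in the members' ratios was not tested. The medians were 0.05 for 4 theca markers, 0.00577 for 4 endothelium markers, -0.07 for 4 smooth muscle markers, 0.08 for 4 immune markers, 0.02 for 2 erythrocyte markers and 0.01 for 3 oocyte markers. Single markers moved more than these medians. In the blocked fit CYP19A1, the aromatase of granulosa cells, rose (0.78 ± 0.15, adjusted p = 0.0309 by limma). The smooth muscle actin ACTA2 fell in it (-0.38 ± 0.07, adjusted p = 0.0301). In the same fit the endothelial receptor KDR was at 0.81 ± 0.21 (adjusted p = 0.07). KDR exceeded the negative controls on 8 FSH and 3 control arrays of 8. The theca marker LHCGR exceeded the negative controls on 2 FSH and 2 control arrays of 8. In RNA of whole cultures, a larger share of such cells and more RNA per cell cannot be told apart.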

How the data were processed

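RNA of FSH-treated and control cultures was measured on 8 two-colour arrays. For each spot, the deposited files hold a raw intensity (mean over pixels) and a median local background at 532 nm (Cy3) and 635 nm (Cy5), which the authors neither subtracted nor normalised, per the file headers. Per the labels, RNA was amplified in 2 rounds and coupled to the dyes chemically. The scanner and its software are not stated in the labels or headers, and the series-wide ratio table was not used.

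Intensities were corrected by normexp (offset 50), and loess was applied to the log2 ratios of each array, with channel levels after Aquantile scaling (limma 3.58.1, R 4.3.3). Tests covered probes above the 95th percentile of 153 negative spots in at least 1 channel on 4 or more arrays. Ratios of a dye-swap pair were averaged, and the 4 means were tested against 0 (lmFit, eBayes, two-sided, Benjamini-Hochberg over 36531 probes, threshold 0.05). Same-numbered arrays deviated together from their orientation's mean (r = 0.782 to 0.913, against -0.67 to 0.201 for other pairs), so the replicate numbers were taken to pair them as dye swaps. Symbols come from the platform annotation, updated through RefSeq synonyms (20068 current, 1644 updated, 78 kept), and a gene is shown by its brightest tested probe. All members are named, with levels by replicate for those at an unadjusted p under 0.05, called in the blocked fit, or fixed as sensors and effectors. For ERN1 the ratios are given instead. Other ER genes are named where called in the blocked fit, otherwise as the 3 of lowest p in a list. ATF6B, the paralogue of ATF6, and ATF3 were named outside this rule. The members and lists were chosen with earlier results of these data known. Fits were tested on simulated data, in which the planted changes were larger than the mean ratio of any member. Recovery of changes as small as those of the members was therefore not tested. Figures were drawn with matplotlib 3.10.9.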

Additional observations from a re-analysis of the deposited data

Results flagged for a closer look

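The members gave 99 sets of 4 replicate values (FSH level, control level and ratio of each gene). Of these, 2 held a sample far from the other 3. Chance gives about 1 set in 20, so 2 of 99 is no more than chance would give. The sets of a gene are not independent. The control level of CALR was 12.42 in replicate 3, against 12.02 to 12.04 in the other controls. The control level of DNAJB9 was 10.25 in replicate 3, against 9.56 to 9.61 in the other controls. Both lie in the control sample in which NR4A1 was also highest. The cause was not tested.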

How the results depend on the processing

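The blocked fit with a dye term called 1244 probes of all tested, 2 members and 10 other ER genes, against 0 in each over the replicate means. With FSH in Cy5 alone the counts were 1975 probes, 1 member (CHAC1, lower) and 5 other ER genes, and with FSH in Cy3 alone 409 probes and 0 members. Leaving out each replicate in turn gave 0 to 2610 probes, 0 to 7 members and 0 to 18 other ER genes, the higher value of each only in the blocked fit without replicate 3, a set of fits added after seeing the data. The ERAD and translocation median ranged from 0.0157 to 0.224 over the replicates left out and was 0.0762 with FSH in Cy3 alone.

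Ratios of several members changed sign, and not only those nearest 0. Over all replicates PPP1R15A was at 0.18, ERO1A at -0.15 and ASNS at -0.11. Leaving out a replicate gave -0.174 to 0.128 for HSP90B1, -0.0511 to 0.00496 for CANX, -0.0231 to 0.249 for P4HB, -0.0405 to 0.388 for SDF2L1, -0.0574 to 0.168 for HERPUD1, -0.0479 to 0.0719 for DERL2, -0.0728 to 0.0225 for OS9, -0.0336 to 0.137 for EIF2AK3, -0.0418 to 0.375 for PPP1R15A and -0.0232 to 0.115 for CHAC1. With FSH in Cy5 alone, HSP90B1 was at 0.127, CANX at 0.169, HYOU1 at -0.0169, ERO1A at 0.151 and CHAC1 at -0.688. With FSH in Cy3 alone, PDIA6 was at -0.0946, HERPUD1 at -0.0831, DERL2 at 0.138, OS9 at 0.0218, EIF2AK3 at -0.157 and ASNS at 0.166. The mean of all probes gave 0.159 for HSP90B1 and 0.00501 for CANX, and median centring gave -0.00163 for HERPUD1, 0.00828 for DERL2 and -0.00114 for EIF2AK3. The causes were not tested. Without background subtraction, without the filter on dim probes and with an intensity trend, 0 of 33 members changed sign. Ratios of probes near the negative controls, such as ERN1 and PPP1R15A, and of dim probes such as HYOU1 and OS9, are limited by signal over background.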
